A study of Mus musculus with 5 samples.

Results

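Ngp, Camp, Ltf, Mmp8, Mmp9, Retnlg, Cxcr2, Csf3r, S100a8 and S100a9, 10 genes of neutrophil granules, cytosol and receptors, were followed in CD45+ cells of the pancreas. They were chosen as known neutrophil genes, with earlier results of these data known. Each had a single probe set of its own, so all 10 of the 19938 genes with a probe set for 1 symbol were found. CD45+ cells, the leukocytes, had been sorted by FACS from the dispersed pancreas of 5 WT NOD females aged 10 weeks, a strain that develops autoimmune diabetes without treatment, and total RNA of each mouse was hybridised to 1 array. The pancreas of each mouse had been imaged by MRI just before, and its T2 value, a relaxation time of the tissue in ms, was 28.98, 30.02, 32.77, 35.24 and 35.3 ms in mice 5, 4, 3, 2 and 1. The mice carried no other label that separates them, so they form 1 group, and the question was how far the neutrophil genes varied between mice and whether they varied with T2. The arrays measured sorted bulk RNA, in which fewer cells of a type and less RNA per cell cannot be told apart. Intensities are the authors' RMA values, and mice are given in the order of their T2.

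Neutrophils are short-lived phagocytes that are made in bone marrow and carry their proteins in granules that form one after another as the cell matures. Primary granules form in promyelocytes, specific granules in myelocytes and metamyelocytes, and gelatinase granules in band cells, while the receptors that let the cell leave marrow and enter tissue appear late. Transcripts of granule proteins are therefore more abundant in immature cells, and those of receptors such as Cxcr2 in mature cells. Neutrophils have been described in the pancreas of young NOD mice before diabetes begins.

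All 10 genes were highest in mouse 3 and the next highest in mouse 5. Mouse 3 alone held the highest value in 22.5% of all genes and in 10.9% of the 6603 genes tested, and the order of mouse 3 before mouse 5 before the others was found in 1.62% of all genes and 2.17% of those tested. The lowest value was in mouse 4 for 6 members, Ngp, Ltf, Retnlg, Cxcr2, S100a8 and S100a9, and in mouse 2 for the other 4. The mean log2 intensity over the 10 members was 6.95, 5.97, 7.70, 6.14 and 6.54 in mice 5, 4, 3, 2 and 1, or 6.66 ± 0.70 (SD, n = 5). Mice 3 and 4 thus differed by 1.73 on the log2 scale in this mean, a fold of 3.32. Without mouse 3 the widest difference in this mean was 0.98, between mice 5 and 4. There was 1 array for each mouse, so the differences between mice have no technical replicate and no test.

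**Figure D1:**
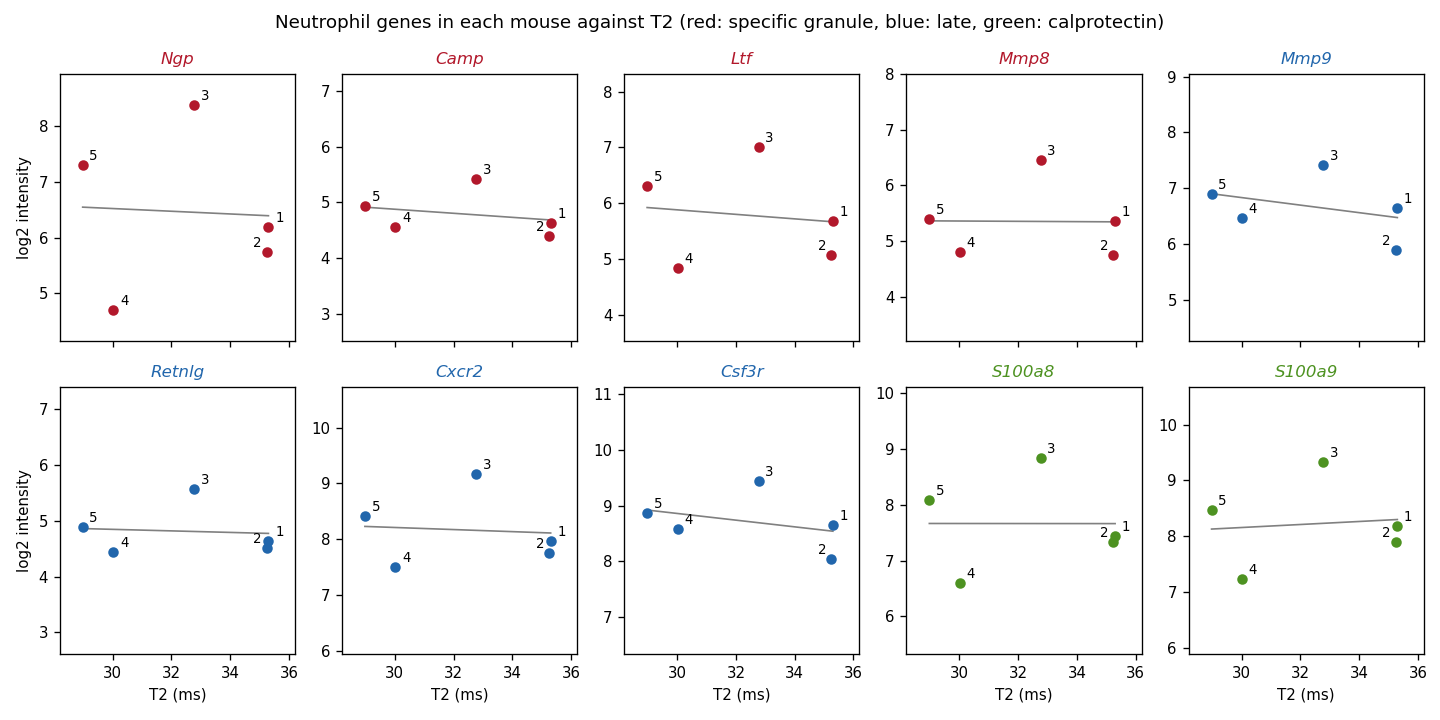
Log2 intensity of each neutrophil gene (vertical axis, the same span of log2 in each panel) against the T2 of the mouse in ms (horizontal axis). Points are the 5 mice with their numbers, the line is the fitted T2 slope, and in all 10 panels mouse 3, at 32.77 ms, is the highest point.

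Every member had a range of at least 1 on the log2 scale between its lowest and its highest mouse, a 2-fold difference, which 1.52% of all genes and 2.92% of the genes tested reached. The median range of the 10 members was 1.68 against 0.27 over the genes tested and 0.20 over all genes. Ngp had the widest range of all 19938 genes, S100a8 ranked 9, Ltf 12 and S100a9 15, and Camp, the narrowest member, ranked 297. Without mouse 3, 5 members still ranged over at least 1, and 1.21% of all genes did so. Those 5 were Ngp, Ltf, Mmp9, S100a8 and S100a9. No member had the same value on any pair of arrays. The members were chosen with earlier results of these data known, so these ranks and shares are descriptions and no test.

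**Figure D2:**
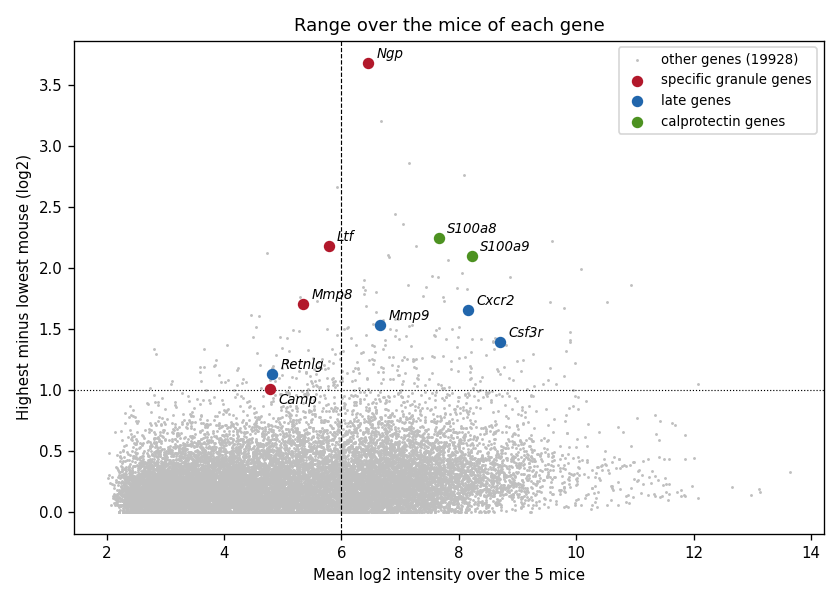
Range over the 5 mice in log2 (vertical axis) against the mean log2 intensity (horizontal axis) for each gene; grey points are the other genes and coloured points the members. The dotted line marks a range of 1 and the dashed line the filter at a mean of 6; all 10 members lie above the dotted line and Ngp, at 3.68, is the highest point.

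The specific granule genes held both the widest and the narrowest range. Ngp, neutrophilic granule protein, a cathelicidin-related protein of mouse neutrophils, had an intensity of 158, 26.0, 333, 53.3 and 72.7 in mice 5, 4, 3, 2 and 1. Mouse 3 exceeded mouse 4 by 12.8-fold, and the fold between the highest and lowest mouse was 6.07 without mouse 3 and 6.25 without mouse 4. Its value in mouse 4, log2 4.70, lay under the median over all genes on that array, 4.86, so the size of this fold rests on a low signal. Ltf, lactoferrin, which binds iron and so withholds it from bacteria, had 79.0, 28.5, 129, 33.7 and 51.3 in mice 5, 4, 3, 2 and 1. Its fold between mice was 4.52, with mice 4 and 2 near the array median and mice 3, 5 and 1 above it, and it was 2.77 without mouse 3.

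Mmp8, the neutrophil collagenase, had an intensity of 42.0, 27.9, 87.9, 26.9 and 41.2 in mice 5, 4, 3, 2 and 1. Mouse 3 stood above the other 4 mice, which lay within 1.56-fold of each other, against a fold of 3.27 with mouse 3. Its values in mice 4 and 2, log2 4.80 and 4.75, lay under the array medians of 4.86 and 4.87. Camp, the cathelicidin antimicrobial peptide, had 30.5, 23.5, 42.6, 21.1 and 24.8 in mice 5, 4, 3, 2 and 1. Its fold of 2.01 was the smallest of the members, and 3 of its 5 values lay under the median over genes of their arrays. Ngp, Camp and Ltf lie on chromosome 9 in RefSeq's GRCm38.p6, with 8 protein-coding genes starting between Camp and Ngp and 20 between Ngp and Ltf, and Mmp8 lies on the same chromosome.

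The 250 bases before the annotated start of the specific granule genes are shown because these genes are known targets of C/EBP factors in the granulocyte lineage and were highest in the same mice. Sequences are RefSeq's, build GRCm38.p6, read 5′ to 3′ on the strand of the gene, from chr9:110419558-110419807 (plus strand) for Ngp, chr9:111019042-111019291 (plus) for Ltf, chr9:7558179-7558428 (plus) for Mmp8 and chr9:109849457-109849706 (minus) for Camp. Capitals mark matches, on either strand, to the letters TTGCNNAA (C/EBP) or GAGGAA (PU.1), and no match to one overlaps a match to the other.
Ngp: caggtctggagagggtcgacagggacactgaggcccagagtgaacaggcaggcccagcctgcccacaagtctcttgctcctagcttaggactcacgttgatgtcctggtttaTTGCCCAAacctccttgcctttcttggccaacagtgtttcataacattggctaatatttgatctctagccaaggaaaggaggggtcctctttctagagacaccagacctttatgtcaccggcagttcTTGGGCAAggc
Ltf: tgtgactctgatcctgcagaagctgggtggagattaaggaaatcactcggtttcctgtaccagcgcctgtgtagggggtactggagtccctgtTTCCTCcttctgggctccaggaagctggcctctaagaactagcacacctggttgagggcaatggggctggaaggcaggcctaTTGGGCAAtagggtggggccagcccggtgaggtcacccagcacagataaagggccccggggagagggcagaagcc
Mmp8: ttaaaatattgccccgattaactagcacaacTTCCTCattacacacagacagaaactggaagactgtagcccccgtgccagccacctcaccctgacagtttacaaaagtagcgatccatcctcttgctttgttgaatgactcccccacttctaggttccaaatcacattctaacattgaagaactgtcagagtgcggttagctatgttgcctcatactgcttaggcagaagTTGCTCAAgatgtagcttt
Camp: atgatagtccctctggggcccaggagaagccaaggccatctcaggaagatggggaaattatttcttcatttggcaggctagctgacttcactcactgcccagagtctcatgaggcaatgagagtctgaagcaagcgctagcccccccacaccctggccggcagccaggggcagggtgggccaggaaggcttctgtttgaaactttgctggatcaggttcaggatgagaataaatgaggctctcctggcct
Ngp held the C/EBP letters at 138 and at 11 bases before the start, Ltf at 75 bases and Mmp8 at 19 bases, and the PU.1 letters stood at 157 bases in Ltf and at 219 in Mmp8. Camp held neither. Of the 9 members with an entry, all but Mmp9, 5 held the C/EBP letters, 3 of them specific granule genes, 1 late gene (Retnlg) and 1 calprotectin gene (S100a9), against 9.56% of 32851 promoters of the same length. The PU.1 letters were in 5 of 9 members, against 23.3% of the promoters. A match is a description of the letters and not of binding.

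The late genes were high in the same mice, with ranges between 1.13 and 1.66. Cxcr2, the receptor for the CXC chemokines that draw neutrophils out of marrow and into tissue, had an intensity of 342, 182, 574, 217 and 252 in mice 5, 4, 3, 2 and 1, a fold of 3.15 between mice 3 and 4. Of all members it lay nearest the mean of the 10, at a Euclidean distance of 0.15 between the centred log2 values over the 5 mice. Ngp was farthest, at 1.51. Each member is part of that mean, and the distance grows with the range of a gene. Ngp, with the widest range, kept the same order of mice as the mean. Csf3r, the receptor for the granulocyte growth factor G-CSF, had 466, 381, 690, 262 and 400.5 in mice 5, 4, 3, 2 and 1. Here mouse 2 was the lowest and mouse 4 lay close to mouse 1, and the fold between mice 3 and 2 was 2.63.

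Mmp9, the gelatinase of the last granules to form, had an intensity of 119, 88.9, 171, 59.2 and 100.4 in mice 5, 4, 3, 2 and 1, a fold of 2.89 with mouse 2 lowest. Retnlg, resistin-like gamma, a secreted protein of mouse neutrophils, had 29.8, 21.7, 47.7, 22.8 and 25.1 in mice 5, 4, 3, 2 and 1. Its fold was 2.19, and 3 of its 5 values lay under the median over genes of their arrays. Mmp9 and Csf3r shared a lowest value in mouse 2, unlike Cxcr2 and Retnlg, which were lowest in mouse 4.

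S100a8 and S100a9 encode the chains of calprotectin, a calcium- and zinc-binding protein that fills the neutrophil cytosol and is also made by monocytes. S100a8 had an intensity of 272, 96.8, 459.6, 162 and 175 in mice 5, 4, 3, 2 and 1, a fold of 4.75. S100a9 had 352, 150.2, 645, 239 and 290.3 in mice 5, 4, 3, 2 and 1, a fold of 4.29. Both were lowest in mouse 4 and highest in mouse 3, and without mouse 3 the folds were 2.81 and 2.34. The difference of the chains, S100a8 minus S100a9 in log2, was -0.37, -0.63, -0.49, -0.56 and -0.73 in mice 5, 4, 3, 2 and 1. It ranged over 0.36 while each chain ranged over more than 2, so the chains kept close to a fixed ratio in every mouse. The genes are neighbours on chromosome 3, with 0 protein-coding genes starting between them.

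Specific granule genes were set against late genes within each mouse, as a measure of the balance of immature and mature transcripts. The mean log2 intensity of Ngp, Camp, Ltf and Mmp8 minus that of Mmp9, Retnlg, Cxcr2 and Csf3r was -1.29, -2.03, -1.08, -1.56 and -1.51 in mice 5, 4, 3, 2 and 1. Only the differences between mice can be read, since probe sets of different genes have no common scale. The order of the mice in this difference, from mouse 3 through 5, 1 and 2 to mouse 4, was the order in the mean of the 10 members. The same genes enter both measures, so the orders are not independent, and mice 2 and 1 changed places when Mmp8 was counted as a late gene or left out of both sets. The difference ranged over 0.94 in log2, a fold of 1.93.

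That range rested largely on Ngp and on mouse 4. It was 0.42 with Ngp in neither set, an alternative added after the data were seen, and 0.47 without mouse 4. With Mmp8 counted as a late gene it was 0.99, and with S100a8 and S100a9 added to the late set 0.60. Ngp minus Cxcr2, a difference that was not planned, was -1.11, -2.81, -0.79, -2.02 and -1.79 in mice 5, 4, 3, 2 and 1. Ngp was the only specific granule gene past the expression filter, and only with mouse 3, its highest mouse, included. Ngp and Cxcr2 had the widest ranges of their sets in these data, so a wide difference follows in part from the choice of this pair. Camp and Retnlg, both near the array median, give little room for a change below it, and the part of this floor in the difference was not tested.

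**Figure D3:**
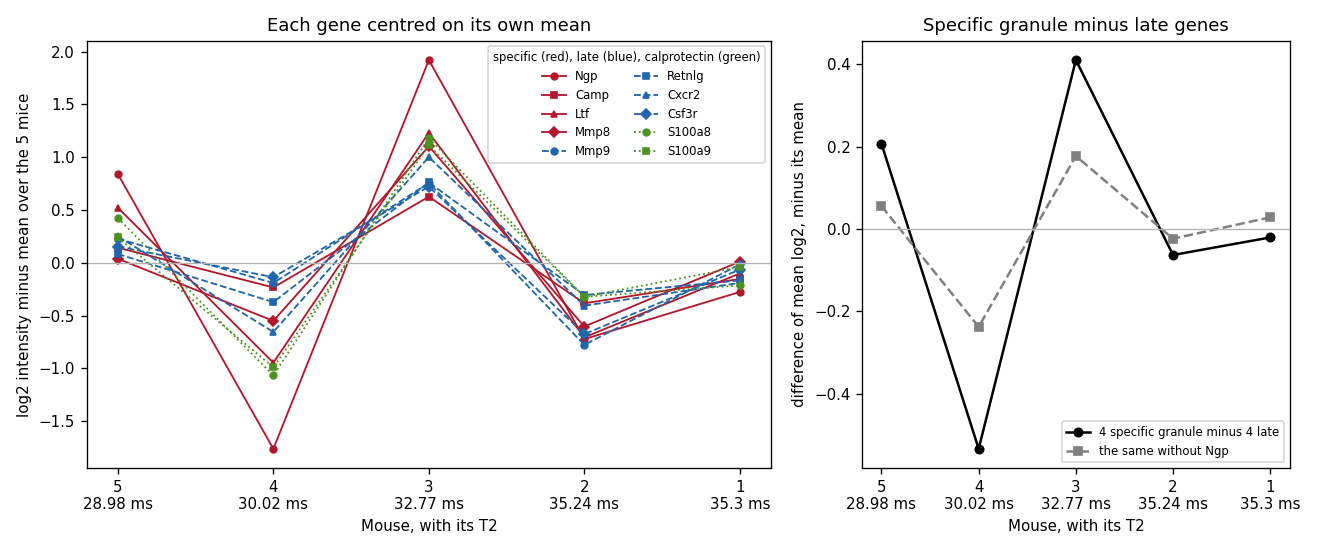
Left, log2 intensity of each member minus its own mean over the mice (vertical axis) by mouse in the order of T2 (horizontal axis, T2 in ms). Right, the mean of the 4 specific granule genes minus that of the 4 late genes, centred in the same way (black), and the same without Ngp (grey); all 10 members and both differences peak at mouse 3, and both differences are lowest at mouse 4.

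The T2 slope of the members was small beside its error. limma's moderated test across the 6603 genes whose mean log2 intensity reached 6 held 6 members, Ngp, Mmp9, Cxcr2, Csf3r, S100a8 and S100a9, and 0 of the 6 passed at an adjusted p under 0.05, against 0% of all genes tested. At an unadjusted p under 0.05 there were 0 of the 6 as well, against 5.29% of all genes tested. Mmp9 had the steepest slope, -0.068 ± 0.092 log2 per ms (SE, n = 5; limma adjusted p = 0.887), and Csf3r had -0.060 ± 0.083 (limma adjusted p = 0.890). Ngp had -0.024 ± 0.25, Cxcr2 -0.019 ± 0.11, S100a8 -0.00036 ± 0.15 and S100a9 0.027 ± 0.13 (SE, n = 5; limma adjusted p = 1 for each). Camp, Ltf, Mmp8 and Retnlg lay under the filter and had slopes of -0.036 ± 0.070, -0.040 ± 0.16, -0.0028 ± 0.12 and -0.014 ± 0.083. Ngp reached the filter only with mouse 3, its highest mouse, included.

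All 10 slopes were smaller than their standard errors. The sign was negative for 9 of the 10 members, where 46.3% of all genes had a negative slope, and for 5 of the 6 members tested, where 67.9% of the genes tested did. With all 120 orders of the T2 values tried, an exact two-sided permutation test had an unadjusted p between 0.592 for Mmp9 and 0.992 for S100a8 (adjusted p = 1 for each of the 6), where the smallest p that the design allows is 0.00833. The intervals were wide. As a fold between the lowest and the highest T2, 6.32 ms apart, Csf3r had 1.30 with a 95% interval of 0.467 to 3.62, S100a8 1.00 with 0.162 to 6.20 and Ngp 1.11 with 0.0520 to 23.8, so changes of several fold in either direction were within the error of these 5 mice. The mean of the 10 members had a slope of -0.024 ± 0.14 and the difference of specific granule and late genes 0.014 ± 0.070, given as descriptions (SE, n = 5).

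**Figure D4:**
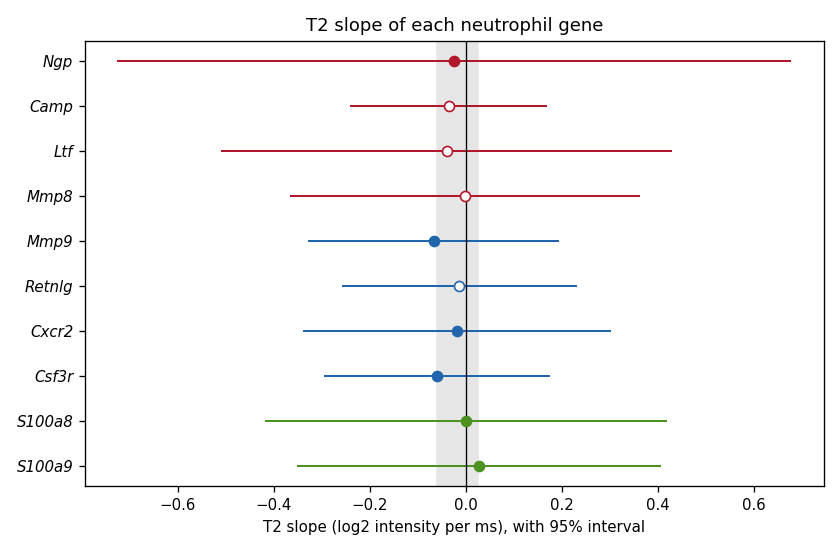
T2 slope of each member in log2 intensity per ms (horizontal axis) with its 95% interval; filled points are the 6 members past the expression filter and open points the 4 under it. The grey band spans the 5th to the 95th percentile of slopes over the genes tested, and all 10 intervals cross 0.

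Mice of nearly the same T2 differed in these genes. Mice 5 and 4 were 1.04 ms apart, and all 10 members were higher in mouse 5, by 1.22-fold for Csf3r to 6.07-fold for Ngp, while 48.7% of the genes tested were higher in mouse 5. Mice 1 and 2 were 0.06 ms apart, and all 10 were higher in mouse 1, by 1.08-fold for S100a8 to 1.70-fold for Mmp9, while 45.2% of the genes tested were. The macrophage list had another order of mice. The mean of its 10 genes was log2 8.60, 8.55, 7.99, 7.39 and 7.27 in mice 5, 4, 3, 2 and 1, so that mice 5 and 4, far apart in neutrophil genes, were alike in the macrophage mean. Single genes varied in order: 6 of the 10 were highest in mouse 5, 4, the 3 C1q chains and Cd68, in mouse 4, and 3, Adgre1, Vsig4 and Mertk, were lower in each mouse of higher T2. Of the list, 0 of the 9 tested with limma passed over all genes (7 at an unadjusted p under 0.05, against 5.29% of the genes tested). Whether the T2 slopes of the neutrophil and the macrophage genes differ was not tested.

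Other neutrophil genes bore on the label. Ly6g, the surface antigen that defines mouse neutrophils, had a log2 intensity of 5.29, 3.73, 5.86, 4.33 and 4.44 in mice 5, 4, 3, 2 and 1. It was above the array median over genes only in mice 3 and 5 and ranged over 2.12. Lcn2, lipocalin 2 of the specific granules, which captures bacterial iron carriers, had 7.80, 5.97, 8.84, 6.17 and 6.96 in mice 5, 4, 3, 2 and 1. Both thus kept the order of mice 3 and 5 before the others. The list of specific granules and immature neutrophils held 13 further genes, Ly6g, Lcn2 and Cd177 included. Of these 8 were highest in mouse 3, against 22.5% of all genes, and 7 ranged over at least 1, against 1.52%. Itgb2l, 1 of the 8, was equal on 4 arrays. With limma 0 of the 9 tested passed over all genes, and 4 had an unadjusted p under 0.05, against 5.29% of the genes tested. Those 4, Lyz2, Cybb, Cd177 and Padi4, were highest in mouse 5 or 4.

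The 4 genes of that list with the highest signal did not share the wide range. Lyz2, lysozyme of all myeloid cells, ranged over 0.63, Cybb, the catalytic chain of the phagocyte oxidase, over 0.65, Anxa1, an annexin that dampens neutrophil entry, over 0.86 and Pglyrp1, a peptidoglycan-binding granule protein, over 0.36. Of 16 mature neutrophil genes 7 were highest in mouse 3 and 6 ranged over at least 1, against 22.5% and 1.52% of all genes. With limma 0 of the 9 tested passed, and 3 had an unadjusted p under 0.05, against 5.29% of the genes tested. The list mean ran between 5.91 in mouse 1 and 6.40 in mouse 3. Cxcr4, a receptor that holds neutrophils in marrow and that lymphocytes also carry, ranged over 0.38, Selplg, the ligand of selectins, over 0.43, Pilra over 0.49 and Mxd1, a MYC antagonist, over 0.80.

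Of the 6 genes on the primary granule list 4 lay under the array median in every mouse. Mpo, myeloperoxidase, lay between log2 3.67 and 3.91, Elane, neutrophil elastase, between 3.93 and 4.12 and Ctsg, cathepsin G, between 3.30 and 3.45; Ms4a3 was the other. Prtn3, proteinase 3, lay between 4.90 in mouse 1 and 6.09 in mouse 5 and was not highest in mouse 3. Serpinb1a, an inhibitor of these proteases and not a granule protein, was counted on this list all the same. It had a mean of 7.22, past the filter, and ranged over 0.76. Prtn3 and Serpinb1a were above the array median in every mouse. Of the 6 genes of this list 1, Mpo, was highest in mouse 3, against 22.5% of all genes. Serpinb1a, the 1 gene tested with limma, did not pass. The cell cycle list, whose members dividing precursors express, had its lowest mean, 4.86, in mouse 5, against 5.17 to 5.21 in the other mice.

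CXCR2 ligands and cytokines of granulocyte growth and recruitment gave low signal. The 12 genes of that list lay between log2 2.69 and 5.77, and none reached the filter. Among the CXCR2 ligands Cxcl1 read 5.42, 5.41, 5.72, 5.48 and 5.48 in mice 5, 4, 3, 2 and 1, and Cxcl2 read 5.77, 5.19, 5.12, 5.34 and 5.66 in the same order of mice. Cxcl1 was highest in mouse 3 and Cxcl2 lowest there. Cxcl3, Cxcl5, Cxcl15 and Ppbp, the other ligands, had means of 3.87, 3.32, 2.71 and 3.23. Csf3, which encodes G-CSF, had a mean of 3.83 ± 0.092, Csf2, the granulocyte-macrophage factor, 2.80 ± 0.062, Il17a 4.47 ± 0.11, Il17f 4.30 ± 0.013 and Il23a 3.12 ± 0.21 (SD, n = 5), while Cxcl12, which retains neutrophils in marrow, had the same value on all 5 arrays.

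None of the 3 receptors of calprotectin was highest in mouse 3. Tlr4 and Cd36 shared their highest and their lowest mouse, and Ager differed from both. Tlr4 read between 4.53 in mouse 2 and 5.16 in mouse 5, and Cd36 between 6.61 in mouse 2 and 7.68 in mouse 5. Ager was lowest in mouse 5, at 5.44, and read 5.66 in each other mouse, with 3 arrays equal. Cebpe, the C/EBP factor that specific granules require, was highest in mouse 3 at 5.18, above the 4.75 to 4.86 of the other mice. Spi1, which encodes PU.1, ranged over 0.56, Cebpb over 0.52, Cebpa over 0.77 and Gfi1 over 0.48. Of the 6 factors 1, Cebpe, was highest in mouse 3, and 0 of the 3 tested with limma passed (0 at an unadjusted p under 0.05). Of 5 oxidase genes 0, and of 6 Fc and adhesion receptors 3, were highest in mouse 3, and 0 of the 5 and 0 of the 6 tested with limma passed (1 and 2 at an unadjusted p under 0.05). Over all genes 22.5% were highest in mouse 3, and 5.29% of the genes tested had an unadjusted p under 0.05.

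Among the lists of other cells the monocyte list was highest in mouse 3. The monocyte list mean was 8.14, 7.67, 8.48, 7.50 and 7.99 in mice 5, 4, 3, 2 and 1. Of its 7 genes 4 were highest in mouse 3, against 22.5% of all genes. Those were Chil3, Vcan, F13a1 and Ccr2, and Chil3 is also a granule gene and was counted in both lists. Of the rest, Fn1 and Csf1r were highest in mouse 5 and Cx3cr1 in mouse 1. Fn1, with the highest signal of the list, read 12.55, 12.55, 12.07, 11.70 and 11.51 in mice 5, 4, 3, 2 and 1. Ly6c2 and Ly6c1 had no probe set for 1 symbol. F13a1, the coagulation factor XIII chain of monocytes, had 7.91, 7.22, 8.72, 7.39 and 8.20 in mice 5, 4, 3, 2 and 1, whereas Ccr2, the chemokine receptor of classical monocytes, ranged over 0.25. The part of monocytes in the member values was not tested. Of the 5 eosinophil genes, Il5ra, a chain of the interleukin-5 receptor, read 6.59, 5.60, 5.50, 5.30 and 6.43 in mice 5, 4, 3, 2 and 1, and Siglecf, a surface lectin of eosinophils, lay between 4.99 and 5.10, both above the array median in every mouse. Ccr3, Prg2 and Epx stayed under log2 4, and the part of eosinophils in the member values was not tested.

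Other lists had their highest means in other mice. The T cell mean was highest in mouse 2, with 9.35 where the other mice had 8.32 to 8.90, the B cell mean in mouse 1, at 9.61, the acinar mean in mouse 1, at 7.01, and the list of dissociation stress genes in mouse 5, at 8.51. Genes of erythroid cells and platelets, as markers of blood, had list means between 4.03 in mouse 1 and 4.32 in mouse 5, under the array median in every mouse, with 5 of 11 genes matched to a probe set for 1 symbol; the globin probe sets carry several symbols and were not used. Array medians over genes were 4.83 to 4.91.

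**Figure D5:**
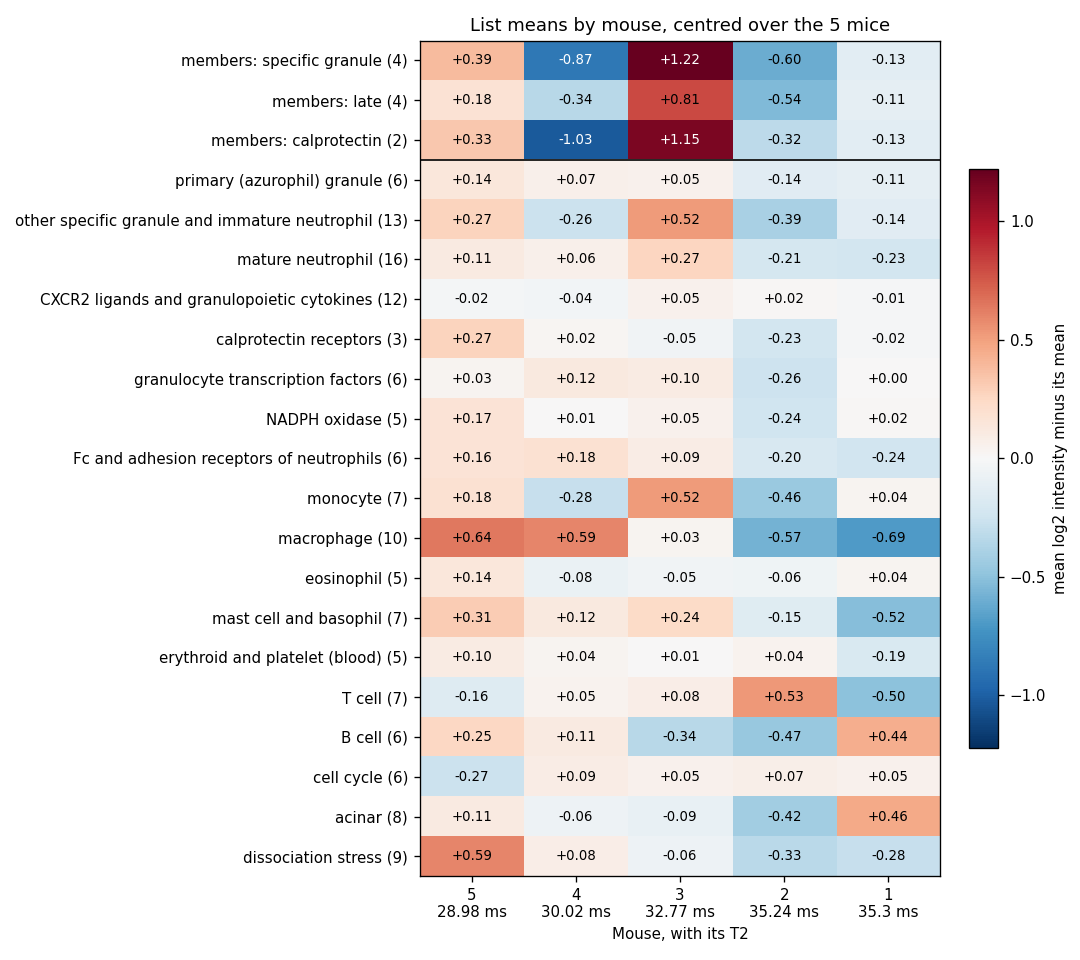
Mean log2 intensity of each gene list (rows, number of genes in brackets) by mouse in the order of T2 (columns, T2 in ms), centred on its mean over the 5 mice; red is above and blue below. The 3 groups of members at the top and the monocyte list are highest in mouse 3, while the macrophage list is highest in mouse 5.

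Among the 6597 other genes past the filter, those most like the mean of the 10 members were found by the Euclidean distance between centred log2 values over the 5 mice, a description with no test. The median distance over all was 1.42. A gene with the same value in every mouse would lie at 1.39, so that median is no measure of likeness. Slc40a1, the iron exporter ferroportin, was nearest at 0.39 and read 6.39, 5.55, 6.98, 5.93 and 5.98 in mice 5, 4, 3, 2 and 1. F13a1 followed at 0.55, Il1b, the cytokine interleukin-1 beta, at 0.55, Il1f9, which encodes the cytokine IL-36 gamma, at 0.59 and Hp, haptoglobin, at 0.71. Il1b read 8.71, 7.78, 8.82, 7.72 and 8.01 in mice 5, 4, 3, 2 and 1, a fold of 2.15 in which mouse 5 lay close to mouse 3. Clec7a, the receptor dectin-1 for fungal glucan, Msrb1, Cd33, Mxd1 and Ifitm6 completed the 10 nearest, at 0.72 to 0.84. Lcn2 was the third nearest to the specific granule mean, at 0.72, after Slc40a1 and Il1f9, and Hp was the nearest to the late mean, at 0.28. Hp and Ifitm6, which ranked 4 in nearness to the late mean, stand on the list of specific granules and immature neutrophils.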

How the data were processed

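Total RNA of CD45+ pancreatic cells of 5 mice was measured on 1 array each. The deposited values are intensities of probe sets and are linear. The submitters' processing notes name RMA and Affymetrix Power Tools; for their versions and the genome build, the sources used here give nothing. No raw scan was used, and precision is limited by how many arrays there are.

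Intensities were transformed to log2. GEO's platform annotation gave 21789 of 35556 probe sets 1 gene symbol, 1621 several and 12146 none; the set of highest mean represented a gene, giving 19938 genes, and all 10 members had a single set. Genes whose mean log2 intensity reached 6 (6603, 6 members among them) entered a linear fit on T2 in limma 3.58.1 (lmFit, eBayes; R 4.3.3), two-sided, with 3 residual degrees of freedom and Benjamini-Hochberg adjustment over all genes at 0.05. Members under the filter have slopes and errors from a fit over all genes. The fit was tested on simulated data. Ranges, list means and distances are descriptions. The members and lists were chosen with earlier results of these data known. The genes planned to be named were the members, the 4 of highest mean in each list, the marker genes and the nearest profiles. For the ligand and calprotectin receptor lists every gene was planned. The text does not name all 4 for the macrophage, oxidase, adhesion, mast cell, blood, T cell, B cell, cell cycle, acinar and dissociation stress lists. Ctsg, Cebpe, Chil3, Vcan, Ccr2 and others in the text were added after their values were seen. A planned comparison of member proteins was not run. The labels name separate mice and give no batch, date or slide to test. Mouse numbers run against T2, so T2 and any order of handling cannot be told apart. Alternatives covered the filter, normalization, probe-set rule, T2 scale, variance model, threshold, sets of genes and each mouse left out.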

Additional observations from a re-analysis of the deposited data

Results flagged for a closer look

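A search for a mouse apart from the rest covered the members, list means, differences, nearest profiles and the 4 genes of highest mean in each list. For the ligand and calprotectin receptor lists it covered every gene. Other genes named in the text, Cebpe, Itgb2l, Ly6g and Cd177 among them, were not searched. In each of the 127 sets of 5 values, the distance of a mouse to its closest other mouse was divided by the range. There were 14 with a share above Dixon's critical value of 0.71, which chance passes in about 1 in 20 independent sets without ties; these sets share genes and hold ties, so the count cannot be read against that rate. None was a member. In 5 of the 14 genes or lists the value was equal on 3 or more arrays, which makes any other value stand apart: Elane in mouse 5, Il17f and Cxcl5 in mouse 3 and Cxcl3 in mouse 2 each had a share of 1, and Ager in mouse 5 had 0.9739. Mouse 3 also stood apart, as the highest, in Il1f9 (0.7975, log2 7.72 against 5.87 to 6.25 in the others), Cxcl1 (0.7526) and Il17a (0.7169, 4.65 against 4.37 to 4.45). Mouse 2 was apart as the lowest in Pilra (0.881, 7.10 against 7.53 to 7.59) and Ncf1, an oxidase subunit (0.9453, 8.10 against 8.70 to 8.73). Mouse 5 was apart as the lowest in the cell cycle list (0.8911) and its members Top2a (0.7944, 4.96 against 5.89 to 6.14) and Cdk1 (0.7913, 4.40 against 4.75 to 4.85), and mouse 4 in Siglecf (0.8343, 4.99 against 5.08 to 5.10).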

How the results depend on the processing

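With 5 arrays, no setting could give the differences between mice an error, and signal near the array median limits Camp, Retnlg and the low mice of Ngp, Mmp8 and Ltf. Under every alternative run 0 members passed the adjusted threshold. Over all genes 3 passed with a filter of 7 and at a threshold of 0.10, 4 with quantile normalized arrays and 4 with array weights, against 0. Of 105 slopes of single members under the alternatives 89 kept the sign of the full data and 16 did not, with a lowest limma adjusted p of 0.725. The alternatives of filter, probe-set rule, moderation, permutation and threshold cannot change the slope of a member. The 89 therefore include slopes whose sign was fixed, and the count does not measure how stable the sign was. With array weights the slopes of Ngp, Cxcr2 and S100a8 were 0.15, 0.038 and 0.10, and with quantile normalized arrays that of S100a8 was 0.0098; the cause was not tested. Leaving out each mouse moved the slope between -0.23 and 0.15 for Ngp, -0.11 and 0.017 for Mmp9, -0.099 and 0.032 for Cxcr2, -0.093 and 0.013 for Csf3r, -0.12 and 0.098 for S100a8, -0.079 and 0.10 for S100a9, -0.11 and 0.041 for the member mean and -0.044 and 0.073 for specific granule minus late genes. Ngp fell under the filter without mouse 3, its highest mouse, and was not fitted there, so its limits lack that omission. The range of the member mean lay between 0.98, without mouse 3, and 1.73, and the number of members with a range of at least 1 between 5, without mouse 3, and 10; 7 members reached a range of 1.5. No paired analysis was possible because the mice form a single group.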

Other observations

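Some genes that are used as neutrophil genes had another order of mice than the members. Of those given here, Padi4 was picked after its values were seen, while Cd177 was a planned marker of the label. Padi4, the enzyme that citrullinates histones in neutrophil extracellular traps, read log2 7.23, 7.24, 6.73, 6.52 and 5.71 in mice 5, 4, 3, 2 and 1. Cd177, a surface glycoprotein of neutrophils, read 8.39, 8.17, 8.14, 7.47 and 7.79 in the same order of mice. In both, mice 5 and 4 were the highest, although mouse 4 was the lowest in Ngp, S100a8 and Ly6g. The limma adjusted p of the T2 slope over all genes was 0.702 for Padi4 and 0.634 for Cd177, so neither passed. The slopes were -0.19 ± 0.052 log2 per ms for Padi4 and -0.11 ± 0.028 for Cd177 (SE, n = 5).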
